A study of Mus musculus with 29 samples.

Results

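The miR-15, miR-16 and miR-195 family was followed through muscle and serum of young, old and disuse mice. Its members here are mmu-miR-15a-5p, mmu-miR-15b-5p, mmu-miR-16-5p and mmu-miR-195a-5p (the mouse prefix is left out from here on), 4 of the 1183 microRNA (miRNA) rows in the deposited count table, chosen by name. They carry the same seed, the stretch of a miRNA that pairs with its targets. Other miRNAs with that seed are not counted as members here. All 4 rows were complete over the 29 libraries. The counts come from small RNA sequencing of serum and of tibialis anterior, a fast muscle at the front of the lower leg, in C57BL/6 mice. Young mice were 6 months old and labelled as controls, with 5 muscle and 5 serum libraries. Old mice were 24 months old, also labelled as controls, with 5 muscle and 4 serum libraries. Disuse mice were 6 months old and came from a model of muscle wasting through lack of use, with 5 muscle and 5 serum libraries. How the muscle was unloaded, and for how long, is not given in the sources used here. No label says that numbered samples came from separate animals or that muscle and serum came from the same mice, so a p-value here reflects sample-to-sample spread alone, and that spread may be technical.

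A miRNA is cut from a hairpin precursor and loaded into an Argonaute protein, where its seed selects the messenger RNAs to be silenced. Members of this family are known for repressing cyclins, cyclin-dependent kinases and the anti-apoptotic gene Bcl2, and they hold back cell division in many tissues. In the heart, miR-195 and its relatives are known to limit the division of muscle cells after birth. In blood, miR-16-5p is carried at high levels by red cells and platelets and is often used as a reference in serum and plasma.

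The mature sequences show what the members share and where they part, and they were taken from RefSeq for GRCm38.p6, the assembly also called mm10. Of the 1183 names in the table, 1010 matched this reference and 7 of those carried the family seed, which is printed in capitals (bases 2 to 8 from the 5′ end).
miR-15a-5p: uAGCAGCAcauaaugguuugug
miR-15b-5p: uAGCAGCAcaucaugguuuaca
miR-16-5p: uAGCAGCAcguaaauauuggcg
miR-195a-5p: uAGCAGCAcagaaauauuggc
The other abundant carriers of the seed are shown because they read the same target sites.
miR-322-5p: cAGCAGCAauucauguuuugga
miR-497-5p: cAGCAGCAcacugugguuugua
The 4 members were identical over at least their first 9 bases and differed mainly in the 3′ part. Counted from the 5′ end, miR-16-5p and miR-195a-5p differed at 2 of 21 compared bases (G10A and U11G), the closest pair. Between miR-15a-5p and miR-15b-5p there were 4 differences over 22 bases (A12C, G20A, U21C and G22A). miR-15b-5p and miR-16-5p stood farthest apart, with 8 differences over 22 bases. How the authors assigned reads that fit more than 1 of these sequences is not given in the sources used here, so counts of such close relatives may be split between them.

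The members come from 3 pairs of neighbouring precursors (GRCm38, RefSeq positions, GENCODE annotation). On chromosome 14, the mature sequences of Mir15a (chr14:61632038-61632096, minus strand) lay in an intron of the long non-coding RNA gene Dleu2, 65 bases from Mir16-1 (chr14:61631880-61631972), which overlapped a Dleu2 exon. On chromosome 3, Mir15b (chr3:69009772-69009835, plus strand) and Mir16-2 (chr3:69009902-69009996) lay 66 bases apart in an intron of Smc4, a gene of the condensin complex that compacts chromosomes. Mir497 (chr11:70234717-70234800, plus strand) and Mir195a (chr11:70235042-70235135) lay 241 bases apart on chromosome 11, where no annotated protein-coding gene overlapped either of them. The 2 hairpins that give miR-16-5p are printed below, with the mature miRNA in capitals, because they yield the same 22 bases and the reads of that arm cannot be traced to 1 of them.
Mir16-1: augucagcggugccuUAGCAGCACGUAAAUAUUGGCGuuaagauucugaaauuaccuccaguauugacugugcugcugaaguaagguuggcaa
Mir16-2: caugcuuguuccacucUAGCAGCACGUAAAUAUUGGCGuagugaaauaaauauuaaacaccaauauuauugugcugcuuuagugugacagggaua

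Muscle libraries held 254624 to 5943445 miRNA counts and serum libraries 45176 to 309133. A count of 0 therefore allowed up to 0.505 to 11.8 CPM (a count scaled to a fixed library total) in muscle and up to 9.70 to 66.4 CPM in serum, for counting error only. The 7 muscle markers chosen for this work, among them miR-1a-3p and miR-133a-3p, summed to between 334857 and 545537 CPM in the muscle libraries and to between 923 and 3705 CPM in serum. In serum, miR-208b-3p was at 0 in the young group, miR-208b-3p and miR-499-5p in the old group, and miR-499-5p in the disuse group. Within muscle and within serum, levels are given as CPM scaled by the trimmed mean of M-values (TMM), and a miRNA is called changed at an adjusted p under 0.05 in edgeR's quasi-likelihood test. Values are from bulk tissue or serum, where fewer cells of a type and less RNA per cell cannot be told apart.

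In every group miR-16-5p was the most abundant member. It ranked 54th of 556 detected miRNAs in young muscle and 50th in both old and disuse muscle, and it ranked 12th, 13th and 11th in young, old and disuse serum. miR-15b-5p came next in muscle (89th, 79th and 91st in young, old and disuse), ahead of miR-15a-5p (117th, 105th and 104th) and miR-195a-5p (128th, 116th and 122nd). In serum miR-15a-5p stood ahead of miR-15b-5p in each group, and the gap was widest in old serum, at 93rd against 112th. Summed, the members made up 0.138% ± 0.0398 of counts in young muscle, 0.175% ± 0.0405 in old muscle and 0.152% ± 0.0275 in disuse muscle (SD, n = 5 each). In serum they made up 1.69% ± 0.628 in young mice (SD, n = 5), 1.25% ± 0.225 in old mice (SD, n = 4) and 1.59% ± 0.215 in disuse mice (SD, n = 5).

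**Figure D1:**
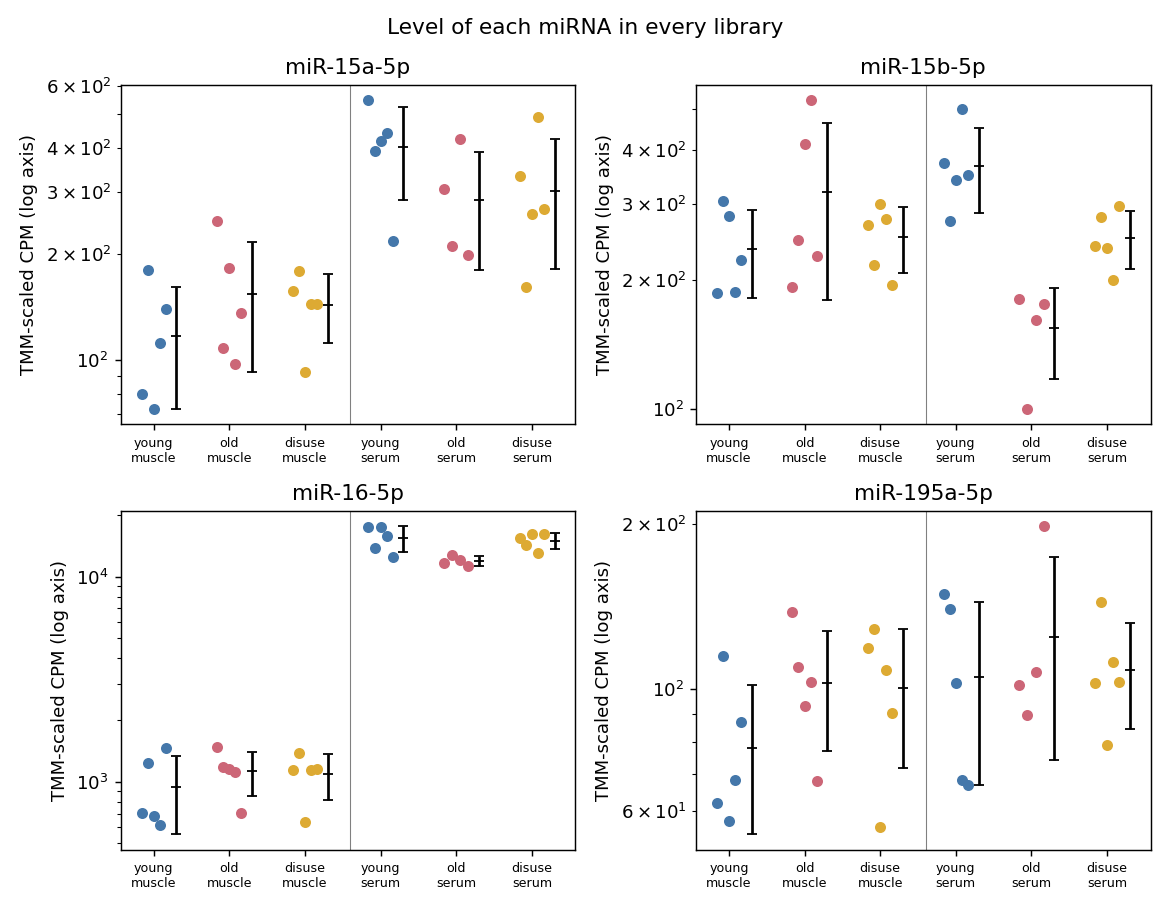
Level of each member in every library, as TMM-scaled CPM on a log axis, for the 3 muscle and 3 serum groups; points are libraries and bars show the mean ± SD, and muscle and serum were scaled separately. miR-15b-5p in the 4 old serum libraries (100 to 181 CPM) lies below all 5 young serum libraries (274 to 498 CPM), and miR-16-5p stands far higher in serum than in muscle in all groups.

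In muscle, none of the 4 members passed the test with age or with disuse. miR-16-5p stood at 703, 1239, 682, 612 and 1468 CPM in the 5 young libraries. In old muscle it stood at 1470.1, 1178, 1148, 1110.4 and 707 CPM, and in disuse muscle at 1136, 1381, 633, 1141 and 1149.9 CPM. The 3 groups overlapped, and each had at least 1 library near 700 CPM or below. miR-16-5p averaged 941 ± 387 CPM in young and 1123 ± 273 CPM in old muscle (SD, n = 5 each). In edgeR its log2 fold change was 0.25 ± 0.25 (SE), with an adjusted p of 0.593.

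Nor did the other members pass in old muscle. miR-15b-5p, transcribed from within Smc4, ranged from 186 to 305 CPM in young, 193 to 523 in old and 194 to 301 in disuse muscle. Its old and young means differed by 0.43 ± 0.25 (log2, SE), the largest of the 4 differences, with an adjusted p of 0.318. Old muscle 3 and 4, at 414 and 523 CPM, were the only muscle libraries above the highest young one for this miRNA. miR-15a-5p, from the Dleu2 intron, ranged from 72.8 to 179.6 CPM in young, 97.2 to 248 in old and 92.2 to 179 in disuse muscle, with a log2 fold change of 0.36 ± 0.27 from young to old (adjusted p = 0.456). For miR-195a-5p, the neighbour of miR-497, the ranges were 57.4 to 115 CPM in young, 68.0 to 138 in old and 56.1 to 128 in disuse muscle, and old against young gave 0.35 ± 0.24 (adjusted p = 0.440). Over all 341 miRNAs tested, 20 (5.87%) were called between old and young muscle (1.17% higher and 4.69% lower), against 0 of 4 members. The members' median log2 fold change was 0.36, beside -0.01 over all miRNAs tested.

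Disuse gave no call either. Between disuse and young muscle their log2 fold changes ran from 0.07 for miR-15b-5p to 0.36 for miR-195a-5p, with adjusted p-values from 0.671 to 0.958, and 0 of 4 were called where 1 of 341 miRNAs (0.293%) was. Old against disuse muscle gave differences from -0.01 for miR-195a-5p to 0.36 for miR-15b-5p, with adjusted p-values from 0.538 to 0.987, again 0 of 4 beside 12 of 341 miRNAs (3.52%, with 0.587% higher and 2.93% lower). Comparisons against young muscle share the young libraries, so they are not independent. In muscle, 3 members stood at the low end of their range in the shallow libraries. In the 4 libraries under 600000 counts (young muscle 1, 3 and 4 and disuse muscle 3), miR-16-5p stood at 612 to 703 CPM, against 707 to 1470.1 CPM in the other 11. miR-15a-5p stood at 72.8 to 112 against 97.2 to 248 CPM, and miR-195a-5p at 56.1 to 68.2 against 68.0 to 138 CPM. The ranges of miR-15b-5p overlapped more widely, 186 to 301 against 193 to 523 CPM. With these 4 libraries left out, a check added after the data were seen, the log2 fold changes from young to old were -0.25 for miR-16-5p, -0.02 for miR-15a-5p, 0.04 for miR-195a-5p and 0.30 for miR-15b-5p, and no member was called.

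**Figure D2:**
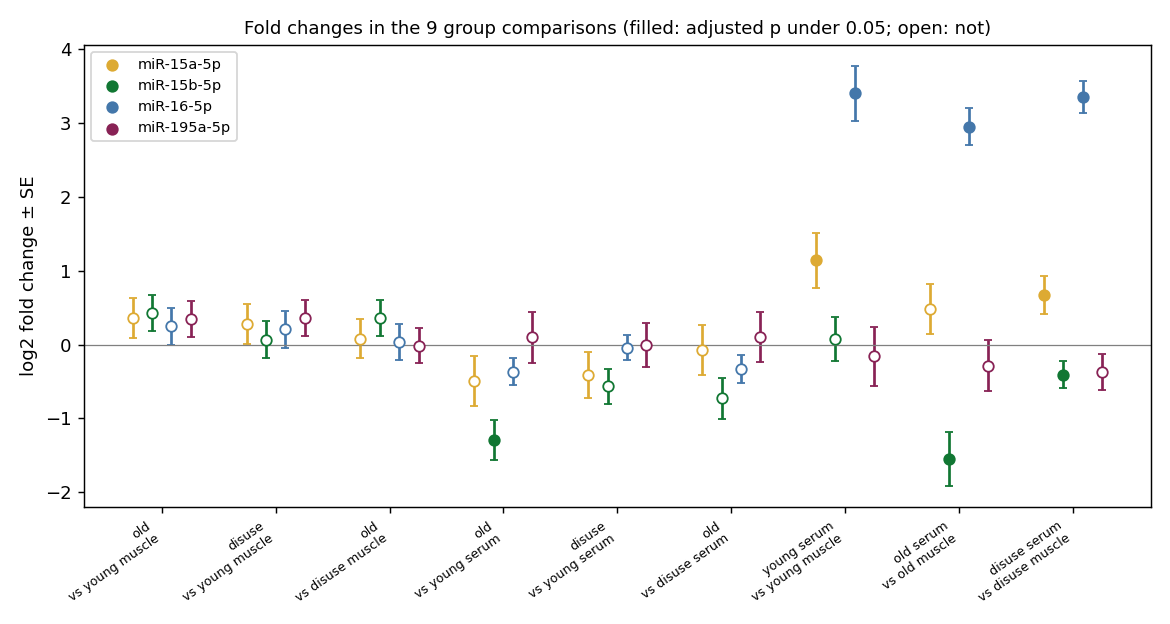
log2 fold change ± SE from edgeR for the 4 members in the 9 comparisons of groups, with filled points at an adjusted p under 0.05 and open points otherwise. The 3 muscle comparisons hold no filled point, old against young serum holds 1 (miR-15b-5p, -1.29), and miR-16-5p is filled at 3.40, 2.95 and 3.35 in the 3 comparisons of serum with muscle.

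In serum, miR-15b-5p fell with age. It stood at 375, 274, 341, 498 and 351 CPM in the 5 young libraries and at 181, 100.2, 161 and 176 CPM in the 4 old ones. Every old library lay below every young one, and old serum 2 was the lowest of all. The mean was 368 ± 81.8 CPM in young (SD, n = 5) and 154 ± 37.1 CPM in old serum (SD, n = 4). The fold fitted by edgeR was 2.45-fold lower, a log2 fold change of -1.29 ± 0.28 (SE) with an adjusted p of 0.0154. It was the 1 member of 4 called, where 16 of 165 miRNAs tested (9.7%) were called and 12 (7.27%) were lower. Old and young libraries did not overlap for 17 of the 165 (10.3%). These levels rest on 21 to 102 counts a library in young and 8 to 33 in old serum. Without old serum 2, 1 miRNA of the table was called, and without old serum 1, 9 were. For miR-15b-5p the call was lost when old serum 2 was left out (-1.11, adjusted p = 0.0634), when libraries were scaled by their totals (-1.25, adjusted p = 0.0578) and when no filter was applied (-1.20, adjusted p = 0.0535).

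Disuse serum stood between the other groups for this miRNA, at 239, 279.6, 237, 199 and 297 CPM (250.6 ± 38.6, SD, n = 5). All 5 disuse libraries lay above the old ones and below the young median, and 2 of them, disuse serum 2 and 5, reached into the young range. Neither neighbour in this order differed from it by the test. Disuse against young gave -0.57 ± 0.24 (adjusted p = 0.358), and old against disuse gave -0.73 ± 0.27 (adjusted p = 0.226).

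The remaining members did not pass in serum. miR-16-5p stood at 17523, 13770.2, 17451, 15751 and 12412 CPM in young, at 11684, 12763, 12003 and 11261 CPM in old, and at 15364, 14276, 16075, 13078 and 16107 CPM in disuse serum. All 4 old libraries lay below all 5 disuse libraries and below the young median, and 1 of them reached above the lowest young library. The mean was 15382 ± 2259 CPM in young, 11928 ± 635 in old and 14980.1 ± 1297 in disuse serum (SD). In edgeR old against young gave -0.37 ± 0.19 (adjusted p = 0.249) and old against disuse -0.33 ± 0.18 (adjusted p = 0.530). miR-15a-5p averaged 402 ± 119 CPM in young, 285 ± 105 in old and 302 ± 121 in disuse serum, with overlapping groups and -0.49 ± 0.34 from young to old (adjusted p = 0.424). miR-195a-5p, the least abundant member with 4 to 41 counts a library, averaged 105 ± 38.5, 124 ± 49.7 and 108 ± 23.5 CPM in young, old and disuse serum, and its old and young means differed by 0.10 ± 0.35 (adjusted p = 0.921).

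Between disuse and young serum, 0 of the 4 members and 0 of 165 miRNAs were called in edgeR, where 20 of the 165 had an unadjusted p under 0.05, and DESeq2 also called 0. Old against disuse serum gave 0 of 4 members beside 4 of 165 miRNAs (2.42%, with 1.82% higher and 0.606% lower), and 2 members, miR-15b-5p and miR-16-5p, had groups that did not overlap, as did 14 of the 165 miRNAs (8.48%). No miRNA was called there when old serum 1, 2 or 3 or disuse serum 3, 4 or 5 was left out, and 1 was without disuse serum 2. Some markers of red cells moved in the same comparison as miR-15b-5p. Of the 5 red-cell markers chosen, 2 fell from young to old serum, miR-451a (-0.82 ± 0.24, adjusted p = 0.0363) and miR-144-5p (-2.16 ± 0.48, adjusted p = 0.0154). Over all miRNAs tested there, 7.27% were called lower. miR-144-3p gave -1.38 ± 0.52 (adjusted p = 0.111), miR-486-5p -0.31 ± 0.39 (adjusted p = 0.676) and miR-3107-5p -0.30 ± 0.39 (adjusted p = 0.676), none of them called. The list's median was -0.82, beside -0.09 over all miRNAs tested. miR-451a stood at 8404 to 18046 CPM in young, 5582 to 7698 CPM in old and 8972 to 11803 CPM in disuse serum, so old and young libraries did not overlap. The 5 markers together, 2 of which muscle also expresses, summed to 219957 to 750529 CPM in young, 168847 to 545814 in old and 242185 to 532223 in disuse serum, and none was at 0 in any group. miR-486-5p alone ran from 108971 CPM in old serum 1 to 494129 CPM in young serum 4. The sums therefore follow miR-486-5p far more than miR-451a. The part of the red-cell markers in the change of miR-15b-5p was not tested.

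An interaction term in a fit of all 29 libraries asked whether a member's age change differed between the sources. For miR-15b-5p the change from young to old was lower in serum than in muscle by 1.60 ± 0.40 on the log2 scale (adjusted p = 0.0391), 1 of 2 miRNAs called among 241 (0.83%). The call was lost when young muscle 1 (adjusted p = 0.0877), young serum 4 (0.0631), young serum 5 (0.0503) or old serum 2 (0.131) was left out, and when the 4 shallow muscle libraries were left out (-1.55, adjusted p = 0.115). It was also lost when the replicate number was added to the fit as a block. For miR-15a-5p, miR-16-5p and miR-195a-5p the interactions were -0.70 ± 0.46, -0.50 ± 0.34 and -0.18 ± 0.43, with adjusted p-values from 0.505 to 0.883. For disuse no member's interaction passed, with adjusted p-values from 0.803 to 0.9997. There edgeR called 0 of 241 miRNAs, with 24 at an unadjusted p under 0.05, and DESeq2 called 0.

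Serum and muscle differed most in miR-16-5p. As a share of library counts it took 0.0942% ± 0.0338 in young muscle and 1.60% ± 0.595 in young serum (SD, n = 5 each). In old mice the shares were 0.115% ± 0.0289 (n = 5) and 1.19% ± 0.203 (n = 4), and in disuse mice 0.104% ± 0.0246 and 1.52% ± 0.201 (n = 5 each). No serum library overlapped a muscle library in any of the 3 states. edgeR gave log2 fold changes of 3.40 ± 0.38 in young (adjusted p = 6.75e-08), 2.95 ± 0.25 in old (6.34e-10) and 3.35 ± 0.22 in disuse mice (2.91e-10), which is 7.74-fold to 10.6-fold higher in serum. Most miRNAs differ between these sources, 145 of 190 (76.3%) in young, 219 of 316 (69.3%) in old and 166 of 192 (86.5%) in disuse mice. In old mice 24.7% were higher and 44.6% lower in serum, and in disuse mice 38% were higher and 48.4% lower. Serum RNA was extracted with another kit and entered the library at 10 ng against 2 µg of muscle RNA, so source and preparation cannot be told apart.

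The other members differed less between the sources and not all in the same direction. miR-15a-5p was higher in serum in young mice (1.15 ± 0.37, adjusted p = 0.00869) and in disuse mice (0.67 ± 0.26, adjusted p = 0.0243), while old mice gave 0.48 ± 0.34 (adjusted p = 0.206). In young mice its call was lost without the 3 shallow young muscle libraries (0.52, adjusted p = 0.244), and in disuse mice without disuse serum 4 (0.47, adjusted p = 0.0556). miR-15b-5p gave 0.07 ± 0.30 in young mice (adjusted p = 0.826) and was lower in serum in old mice (-1.55 ± 0.36, adjusted p = 7.45e-04). On the library-total scale it averaged 337 ± 174 CPM in old muscle and 159 ± 58.5 CPM in old serum, against 240.2 ± 55.5 and 368 ± 94.3 CPM in young muscle and serum. In disuse mice it was called lower in serum at -0.41 ± 0.18 (adjusted p = 0.0468), a call lost with every other scaling tried and reversed in sign to 0.07 with library totals. It was also lost when disuse muscle 1, 3 or 4 or any 1 of the disuse serum libraries was left out (-0.42 to -0.23). miR-195a-5p did not pass in any state, with log2 fold changes of -0.16, -0.28 and -0.37 in young, old and disuse mice, and these turned to 0.51, 0.13 and 0.15 with library totals. The median of all miRNAs tested stood at -0.34, -0.87 and -0.36 in the 3 states, and at 0.17, -0.48 and 0.13 with library totals.

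The make-up of the family differed between the sources. miR-16-5p took 67.4% ± 5.81 of the members' summed counts in young, 65.7% ± 5.53 in old and 68.0% ± 5.78 in disuse muscle, and 94.6% ± 0.559, 95.5% ± 1.03 and 95.7% ± 0.880 in the matching serum groups (SD). miR-15b-5p took 18.2% ± 5.11, 19.1% ± 7.27 and 16.8% ± 6.54 in muscle but 2.28% ± 0.513, 1.25% ± 0.339 and 1.60% ± 0.211 in serum. miR-15a-5p held 8.58% to 9.17% in the muscle groups and 1.97% to 2.44% in serum, and miR-195a-5p 5.80% to 6.24% and 0.648% to 1.01%.

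**Figure D3:**
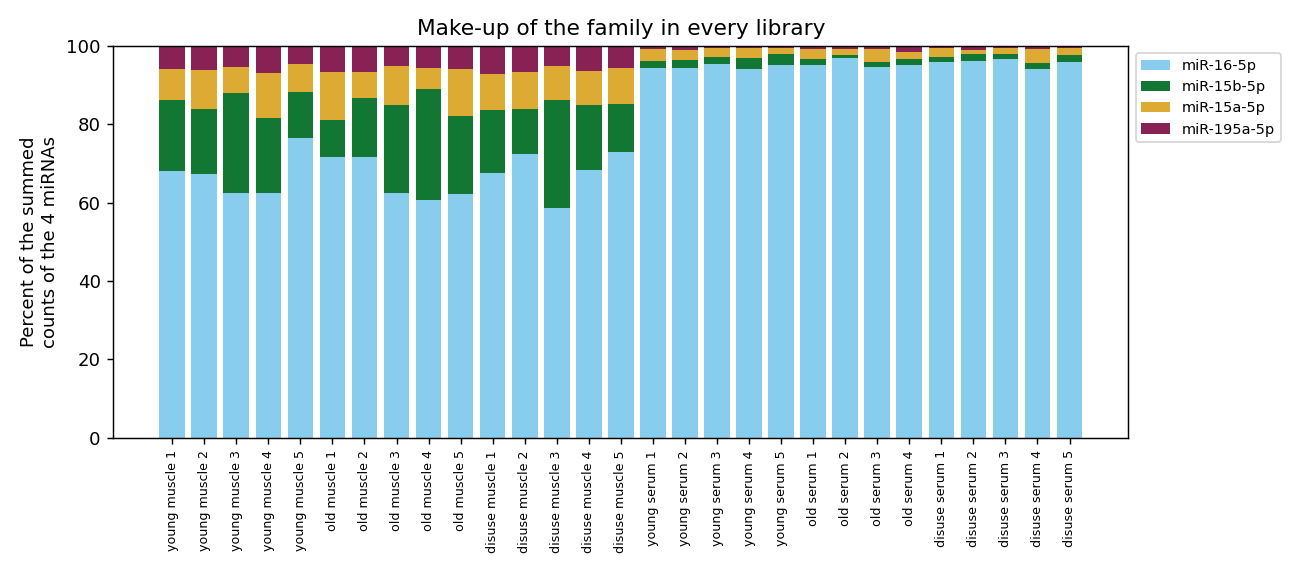
Percent of the summed counts of the 4 members taken by each of them, one bar per library. miR-16-5p takes 58.5% to 76.6% in the 15 muscle libraries and 94.0% to 97.0% in the 14 serum libraries, and the share of miR-15b-5p in muscle runs from 9.40% to 28.5%.

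The ratio of each other member to miR-16-5p within a library does not depend on the scaling between libraries, and 27 such differences were tested with exact two-sided permutation tests on log2 ratios (0.5 added to each count), adjusted over the 27. In all 3 states the ratios of miR-15a-5p, miR-15b-5p and miR-195a-5p to miR-16-5p were lower in serum than in muscle, with no overlap between libraries. These ratios share miR-16-5p as the denominator, which was itself higher in serum. They therefore reflect that difference and are not independent of each other. The differences ran from -2.30 for miR-15a-5p in young mice to -4.38 for miR-15b-5p in old mice, with adjusted p-values of 0.0357 or 0.0390 in the exact tests. The smallest exact p that 5 libraries against 5 allow is 0.00794, and 5 against 4 allow 0.0159. In old mice the calls of all 3 ratios were lost when any 1 of the 9 libraries was left out, which leaves fewer permutations, with adjusted p-values of 0.0701 or 0.0877 in the exact tests. In young and disuse mice they passed with any 1 library left out.

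Within serum, the ratio of miR-15b-5p to miR-16-5p was also lower in old than in young libraries, but its call depends on which tests are adjusted together. The log2 ratio was -5.54, -5.64, -5.66, -4.98 and -5.11 in the young libraries. In the old libraries it was -5.97, -6.96, -6.20 and -5.91, all below the lowest young value. The means differed by -0.88 (exact permutation p = 0.0159, adjusted p = 0.0390). In disuse serum the ratio was -5.99, -5.65, -6.06, -6.03 and -5.75, with 1 library inside the young range, and the mean differed from young by -0.51 (exact permutation p = 0.0159, adjusted p = 0.0390). Old and disuse serum differed by -0.36 (exact permutation p = 0.159, adjusted p = 0.330). The adjustment ran over all 27 tests, so these adjusted values depend on the serum against muscle ratios, all of which passed. The lowest exact permutation p within serum was 0.0159. With adjustment over the serum tests alone, neither old nor disuse against young serum would pass. No other ratio passed within serum, and none of the 9 within muscle did, where adjusted p-values in the exact tests were 0.847 or higher. With any 1 of the 9 old and young serum libraries left out, fewer permutations are possible, and the adjusted p for old against young rose to between 0.0701 and 0.0877 in the exact tests. For disuse against young the call was lost, at 0.0714 to 0.0779, without any 1 of the 10 libraries other than young serum 3 and disuse serum 2.

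**Figure D4:**
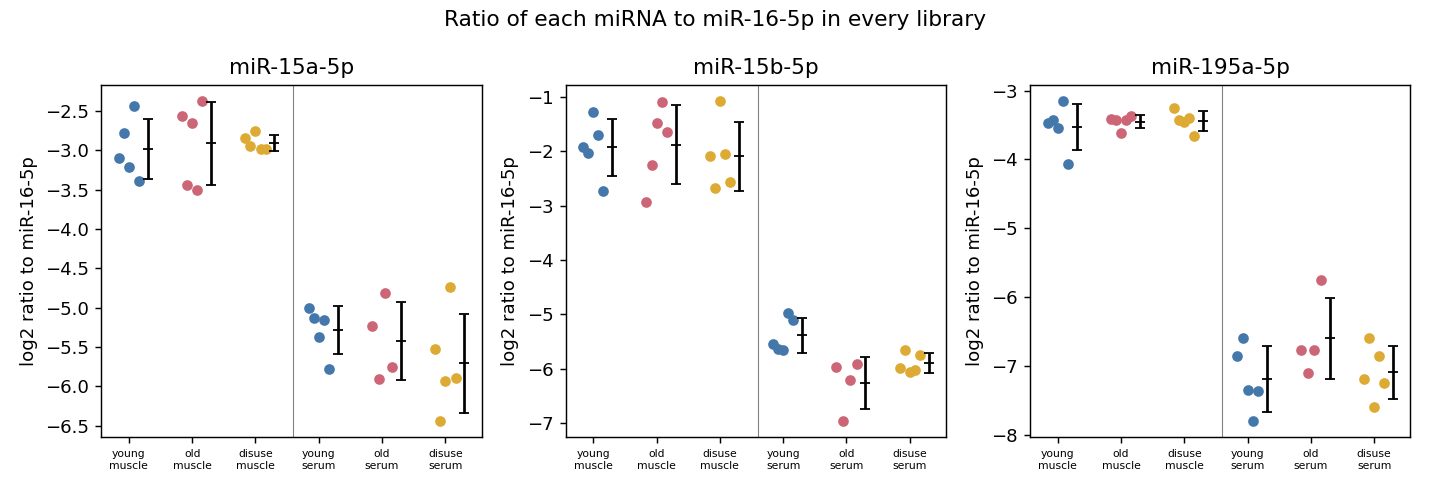
log2 ratio of miR-15a-5p, miR-15b-5p and miR-195a-5p to miR-16-5p in every library; points are libraries and bars show the mean ± SD of a group. Each ratio is lower in serum than in muscle without overlap, and for miR-15b-5p the 4 old serum libraries (-6.96 to -5.91) lie below the 5 young serum libraries (-5.66 to -4.98).

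Each hairpin also yields a passenger arm from its other strand, and these arms are shown because they tell the precursors apart where the guide arm does not. The capitals mark their own bases 2 to 8, which differ from the family seed and from each other.
miR-15a-3p: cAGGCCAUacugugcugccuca
miR-15b-3p: cGAAUCAUuauuugcugcucua
miR-16-1-3p: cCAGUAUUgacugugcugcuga
miR-16-2-3p: aCCAAUAUuauugugcugcuuu
miR-195a-3p: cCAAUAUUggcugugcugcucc
Of the arms that belong to 1 copy of miR-16 only, miR-16-2-3p was counted 52 times in muscle and 44 times in serum, over all libraries, and miR-16-1-3p 8 times and 2 times. Beside 39227 and 32651 counts of miR-16-5p, miR-16-2-3p made up 0.132% of the 2 arms in muscle (95% exact binomial interval 0.0989% to 0.174%) and 0.135% in serum (0.0978% to 0.181%). Arms differ in stability, so these counts do not give the share of miR-16-5p from each precursor.

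The passenger arms of the other members were not split the same way in both sources. miR-15a-3p made up 0.333% of its pair in muscle (18 counts beside 5389 of its guide, interval 0.197% to 0.526%) and 7.88% in serum (6.21% to 9.84%). For miR-15b-3p the shares were 0.245% in muscle (0.152% to 0.375%) and 6.16% in serum (4.42% to 8.33%). miR-195a-3p went the other way, with 20.9% in muscle (19.7% to 22.1%) and 9.89% in serum (6.62% to 14.1%). These pooled shares have intervals that cover counting error only, and 3, 1 and 3 of the 14 serum libraries had 0 counts of miR-15a-3p, miR-15b-3p and miR-195a-3p. Over single libraries, miR-195a-3p ran from 13.8% to 40% in muscle and from 0% to 21.4% in serum, so the sources overlapped. miR-15a-3p ran from 0% to 4.17% in muscle and 0% to 18.2% in serum, and miR-15b-3p from 0% to 0.497% and 0% to 11.1%.

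Within serum, the share of miR-15b-3p was lowest in the young group, where its guide was highest. The guide is part of that share, so a higher guide lowers it by construction. miR-15b-3p itself averaged 10.4 ± 9.50 CPM in young, 18.7 ± 5.57 in old and 21.1 ± 2.96 in disuse serum (SD). It held 2.80% of its pair in young (8 counts, interval 1.22% to 5.44%), 10.6% in old (9 counts, 4.96% to 19.2%) and 8.40% in disuse serum (22 counts, 5.34% to 12.4%). Young and old intervals overlapped, and its low counts kept it out of the edgeR test within serum, so the difference was not tested. Between old serum and old muscle, where it was tested, miR-15b-3p gave 3.82 ± 0.80 in edgeR (adjusted p = 2.44e-04) while its guide was lower. That rests on 9 serum counts, 1 to 4 a library, beside 13 in muscle. miR-15b-3p passed the filter only through serum, where it is higher, so the call is no separate support. miR-195a-3p gave -1.79 ± 0.58 in edgeR (adjusted p = 0.00894), on 6 serum counts, 1 to 2 a library. It passed the filter only with the muscle libraries counted, where it is higher.

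**Figure D5:**
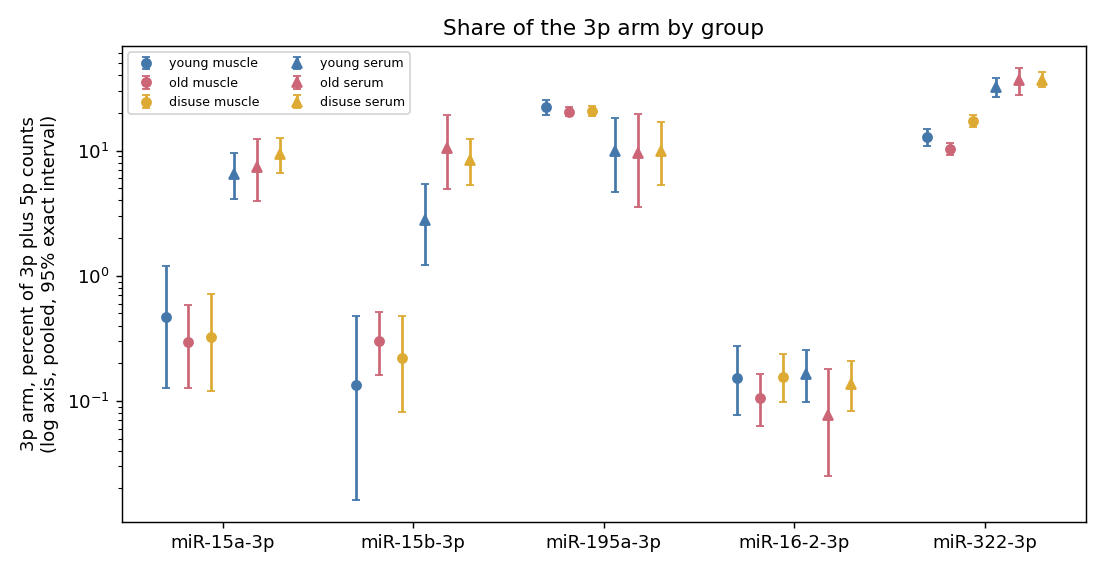
Share of the 3p arm in the counts of both arms, pooled over the libraries of a group, on a log axis with 95% exact binomial intervals; circles are muscle and triangles are serum. The group shares of miR-15a-3p and miR-15b-3p lie between 0.133% and 0.469% in muscle and between 2.80% and 10.6% in serum, those of miR-195a-3p are higher in muscle (20.5% to 22.1%) than in serum (9.52% to 10.0%), and those of miR-16-2-3p overlap.

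Among other carriers of the seed, miR-322-5p (the mouse counterpart of human miR-424) and miR-497-5p were abundant enough to test, and miR-195b, in an incomplete row, had 1 count in muscle. None of them, nor miR-103-3p and miR-107-3p, which hold AGCAGC 1 base nearer the 5′ end, was called in the 6 comparisons within a source. In old against young serum miR-322-5p gave -0.90 ± 0.38 (adjusted p = 0.159), miR-497-5p -0.88 ± 0.45 (adjusted p = 0.260) and miR-103-3p -0.01 ± 0.23 (adjusted p = 0.987). miR-497-5p, made 241 bases from miR-195a, was lower in serum than in muscle in young (-2.25 ± 0.40, adjusted p = 3.10e-05), old (-2.96 ± 0.41, adjusted p = 1.75e-06) and disuse mice (-2.13 ± 0.23, adjusted p = 2.38e-07). Its level was 192 ± 45.8, 193 ± 41.6 and 203 ± 17 CPM in young, old and disuse muscle and 60.6 ± 22.2, 31.3 ± 16.6 and 61.4 ± 22.9 CPM in the matching serum groups (SD). Muscle and serum were scaled separately for these levels. Those in young, old and disuse serum rest on only 3 to 18, 1 to 11 and 4 to 24 counts a library. miR-322-3p, the other arm of miR-322, was higher in serum in old (1.66 ± 0.35, adjusted p = 2.48e-04) and disuse mice (2.01 ± 0.19, adjusted p = 2.76e-08). In young mice it did not pass the filter and was not tested. In disuse mice it passed the filter only with serum libraries counted, where it is higher, so that call is no separate support.

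A list of 18 other miRNAs known to act on the cell cycle, of which 17 were in the table, was set beside the family. It was chosen with earlier results of these data known. From young to old muscle 1 of 17 tested was called, miR-29a-3p, which represses collagen genes (0.75 ± 0.16, adjusted p = 0.00294), which as a share is close to the 5.87% called over all miRNAs, and the list's median was 0.47 beside -0.01 over all miRNAs. Old against disuse muscle called 1 of 17, the p53-induced miR-34a-5p (0.88 ± 0.24, adjusted p = 0.0348), where 3.52% of all miRNAs tested were called. From young to old serum 1 of 12 tested was called, miR-26a-5p, which targets the methyltransferase gene Ezh2 (-0.96 ± 0.23, adjusted p = 0.0184). Over all miRNAs tested there, 9.7% were called, and the list's median was -0.13 beside -0.09. Neither disuse against young comparison called any of them. Between serum and muscle the list split, with 2 of 12 higher and 6 lower in young mice, 3 of 17 higher and 7 lower in old mice, and 2 of 12 higher and 8 lower in disuse mice. Over all miRNAs tested, 32.6% were higher and 43.7% lower in young, 24.7% and 44.6% in old, and 38% and 48.4% in disuse mice. let-7a-5p was the lowest of them in serum in each state (-5.20, -6.01 and -5.87) and miR-24-3p the highest (2.35, 2.55 and 2.64).

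The members did not follow each other equally across libraries. Over the 15 muscle libraries, log2 CPM of miR-16-5p and miR-195a-5p had a Pearson correlation of 0.89, miR-15a-5p and miR-195a-5p 0.77, and miR-15a-5p and miR-16-5p 0.72, while miR-15b-5p had -0.11 with miR-15a-5p and 0.10 with both others. These libraries share the depth differences described above, and the values describe only this set of libraries. The 3 miRNAs with the highest correlations were then taken for each member, with the members themselves left out of the ranking. The miRNAs most like miR-16-5p in muscle were miR-24-2-5p (0.89), miR-126a-3p (0.83) and miR-224-5p (0.81), and those most like miR-195a-5p were miR-24-2-5p (0.91), miR-126a-3p (0.77) and miR-425-5p (0.73). With members counted, miR-195a-5p would stand first for miR-16-5p, and miR-16-5p and miR-15a-5p would follow miR-24-2-5p for miR-195a-5p. For miR-15a-5p they were miR-425-5p (0.88), miR-187-3p (0.81) and miR-133a-3p (0.80), and for miR-15b-5p miR-6236 (0.73), miR-1198-5p (0.71) and miR-145a-5p (0.64).

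Serum showed another arrangement over its 14 libraries. As in muscle, group means were not removed, so differences between groups enter these correlations. miR-15b-5p and miR-16-5p had a correlation of 0.65, and miR-195a-5p had -0.20, -0.16 and -0.06 with miR-15b-5p, miR-16-5p and miR-15a-5p. Most like miR-15b-5p were miR-26a-5p (0.94), miR-148b-3p (0.87) and let-7d-5p (0.87). For miR-16-5p they were the red-cell miRNA miR-451a (0.81), miR-211-5p (0.78) and the blood-cell miRNA miR-142-3p (0.77), and miR-451a had 0.72 with miR-15b-5p. Like miR-15b-5p, miR-26a-5p, miR-148b-3p, miR-451a and miR-211-5p were called lower in old than in young serum. Neither let-7d-5p nor miR-142-3p was called there. miR-15a-5p was most like miR-93-5p (0.78), miR-199a-3p (0.77) and miR-181c-5p (0.75), and miR-195a-5p, with its low counts, reached 0.58 with miR-200a-3p, 0.57 with miR-378a-5p and 0.55 with miR-152-3p.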

How the data were processed

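The authors deposited raw counts per miRNA, made with Bowtie and the mouse build mm10 per the submitters' processing notes. No source used here gives the annotation or the rule for reads with more than 1 matching miRNA. Per the labels' protocols, serum RNA came from 300 µl of serum, and TruSeq small RNA libraries took 2 µg of muscle or 10 ng of serum RNA. Of 1183 miRNAs, 695 had values for all 29 libraries and were used. The other 488 deposited rows held 28 values, with the last column empty, and which library lacks a value is not given, so they were read only as an alternative (17450 counts, 0.0518% of muscle counts).

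Counts were tested with edgeR 4.0.16 (R 4.3.3; TMM scaling, filterByExpr by group, Benjamini-Hochberg adjustment, threshold 0.05), with the 3 groups of a source in 1 fit, 2 groups for serum against muscle and all 29 libraries for interactions. The steps were tested on simulated data. Alternatives were DESeq2 1.42.0, other scalings, no filter, the 2 groups alone, a replicate block, the short rows, and leaving out each library. Ratios were tested by exact permutation (SciPy 1.17.1). Limits for 0 counts are 3 counts, and intervals cover counting error only at the 95% level. Same-numbered libraries did not deviate together in every pair, so replicate numbers were not taken as pairs. A batch shared by some of the numbers is not excluded by this. In serum the median correlation was 0.072 for same-numbered and -0.021 for other pairs.

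The members and lists were chosen with earlier results of these data known. Named miRNAs are the members, miRNAs with their seed or with AGCAGC near the 5′ end, their passenger arms, the 3 most correlated miRNAs of each member (other members left out), the red-cell markers, and the called members of the marker and cell-cycle lists. miR-322-3p was added after its values were seen.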

Additional observations from a re-analysis of the deposited data

Results flagged for a closer look

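In old serum, miR-195a-5p stood at 198 CPM in library 4 and at 89.7 to 107 CPM in the other 3, a gap of 0.838 of the group's range. That library was the shallowest of all, with 45176 counts in total and 9 of this miRNA. In old muscle, the log2 ratio of miR-195a-5p to miR-16-5p was -3.62 in library 3, which lay apart from the other 4 by 0.785 of the range. These are 2 of 42 groups of values tested for a library standing apart, and chance alone marks about 1 in 20 groups.

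The change of miR-15b-5p from young to old differed between serum and muscle, by -1.60 on the log2 scale (serum minus muscle), the only 1 of 8 interactions of members that passed in edgeR. The call was lost when young muscle 1, young serum 4, young serum 5 or old serum 2 was left out.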

How the results depend on the processing

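Results are log2 differences, or numbers of miRNAs called in edgeR, and where a value changed the cause was not tested. The higher level of miR-16-5p in serum kept its direction and its call in all 3 states under every alternative run, single libraries left out included, from 2.64 to 4.08 on the log2 scale. The lower miR-15b-5p in old than in young serum kept its direction throughout. Its call was lost with library totals (-1.25) and with no filter (-1.20), and leaving out each library gave -1.39 to -1.11, with the call lost without old serum 2.

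With the replicate block, miR-15b-5p in the age interaction was at -1.56 (adjusted p = 0.0566) and in disuse serum against disuse muscle at -0.41, both no longer called. The blocked count was 0 in disuse against young muscle, 0 in old against disuse serum and 1 in the age interaction. Blocked miR-195a-5p was at 0.025 in old against disuse muscle and 0.027 in disuse against young serum, with its sign changed. The block changed no other call of a member. Same-numbered libraries had median correlations of -0.010 in muscle, 0.072 in serum and -0.0021 between sources, with 2 of 15, 5 of 13 and 2 of 14 above 0.1. Among pairs with other numbers, 17 of 60, 14 of 52 and 5 of 56 were above 0.1. The numbers were not taken as pairs, but a batch shared by some of them is not excluded.

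Leaving out the 4 shallow muscle libraries, chosen after the data were seen, turned old against young muscle to -0.025 for miR-15a-5p and -0.25 for miR-16-5p, disuse against young muscle to -0.10 for miR-15b-5p and -0.13 for miR-16-5p, and old against disuse muscle to -0.034 for miR-15a-5p and -0.12 for miR-16-5p. None of these was called. Against muscle, young serum miR-15a-5p fell to 0.52 and lost its call, miR-15b-5p turned to -0.35, and disuse serum miR-15b-5p was at -0.23 without a call. The age interaction of miR-15b-5p was at -1.55 without a call (0 miRNAs called), that of miR-195a-5p at 0.076, and the disuse interaction of miR-16-5p at 0.15.

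With library totals, miR-15b-5p in disuse against young muscle was at -0.0047, and serum against muscle gave 0.51, 0.13 and 0.15 for miR-195a-5p in young, old and disuse mice, 0.07 for miR-15b-5p in disuse mice and 0.95, now called, for miR-15a-5p in old mice. Calls fell to 5 in old against young serum and 0 in old against disuse serum. miR-15b-5p in disuse serum against disuse muscle lost its call with RLE factors (-0.20), DESeq2 (-0.20), without the most abundant miRNAs (-0.29) and with no filter (-0.44). miR-195a-5p in young serum against muscle was at 0.11 with RLE factors and 0.11 with DESeq2, and miR-15b-5p there at -0.096 with no filter.

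Signs of uncalled values also changed elsewhere. In old against disuse muscle, miR-195a-5p was at 0.046 with RLE factors, 0.085 with library totals, 0.037 without the most abundant miRNAs, 0.075 with no filter, 0.071 with the short rows and 0.041 with DESeq2. In disuse against young serum, miR-16-5p and miR-195a-5p were at 0.041 and 0.083 with RLE factors, 0.10 and 0.14 without the most abundant miRNAs, 0.14 and 0.18 with no filter, 0.090 and 0.11 with the 2 groups alone, and 0.040 and 0.078 with DESeq2. The disuse interaction of miR-16-5p was at 0.063 without the most abundant miRNAs and 0.0096 with the short rows.

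Over all miRNAs, disuse against young muscle gave 2 calls without the most abundant miRNAs, with no filter, with the short rows and with the 2 groups alone. Old against young serum gave 6 with the 2 groups alone. With no filter there were 5 calls in disuse against young serum, 270 in young and 327 in disuse serum against muscle, and 5 in the disuse interaction. The age interaction gave 6 calls with RLE factors, 8 without the most abundant miRNAs, 6 with no filter and 11 with DESeq2.

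Leaving out single libraries gave 0 to 2 calls in disuse against young muscle, 1 to 20 in old against young serum (1 without old serum 2 and 9 without old serum 1), 0 to 3 in old against disuse serum, 1 to 9 in the age and 0 to 1 in the disuse interaction, and 6 to 11 ratio tests passed (6 without any 1 old library, which leaves fewer permutations). For miR-15b-5p the ranges were -0.024 to 0.20 in disuse against young muscle, -0.074 to 0.21 in young serum against muscle, -0.50 to -0.23 in disuse serum against muscle and -1.95 to -1.39 in the age interaction. For miR-15a-5p they were -0.15 to 0.27 in old against disuse muscle, -0.37 to 0.16 in old against disuse serum, and 0.088 to 0.81 in old and 0.47 to 0.98 in disuse serum against muscle. For miR-16-5p they were -0.074 to 0.16 in old against disuse muscle, -0.10 to 0.12 in disuse against young serum and -0.35 to 0.073 in the disuse interaction. For miR-195a-5p they were -0.15 to 0.10 in old against disuse muscle, -0.072 to 0.34 in old against young, -0.14 to 0.26 in disuse against young and -0.16 to 0.23 in old against disuse serum, -0.37 to 0.11 in young serum against muscle and -0.54 to 0.042 in the age interaction. Among log2 ratios to miR-16-5p in muscle, miR-15a-5p ranged from -0.058 to 0.23 (old against young), -0.020 to 0.22 (disuse against young) and -0.14 to 0.14 (old against disuse), miR-15b-5p from -0.15 to 0.31 and -0.41 to 0.0043 (the first pair of those), and miR-195a-5p from -0.053 to 0.18, -0.040 to 0.19 and -0.069 to 0.033. In serum, miR-15a-5p ranged from -0.34 to 0.019 (old against young) and miR-195a-5p from -0.056 to 0.25 (disuse against young). Depth limits miR-195a-5p most, with 4 to 41 counts in a serum library.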
